A study of Homo sapiens with 14 samples.

Results

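The genes described here are 39 genes of glycolysis and of the cellular response to low oxygen, given by name, of 20992 genes that the array's accessions name. Probes for 38 of the 39 were found by matching the accession of each probe to the gene table, which gave 48 probes of 50599, with 2 probes for each of 10 genes. No probe was matched to ALDOA. The genes were measured in A172 and U87-MG (U87 below), established human glioblastoma cell lines, on 14 one-colour arrays. A172 control and U87 control cells were electroporated with a negative control siRNA that has no target RNA, and A172 siLINC00152 and U87 siLINC00152 cells with an siRNA against exon 1 of the long non-coding RNA LINC00152, at 20 pmol/ml. RNA was taken 40 h after transfection according to the labels. The study's methods give a later time, and which of these holds is not known. Each A172 group had 3 arrays and each U87 group 4, in sets numbered 1 to 3 and 1 to 4, and a control array and a knockdown array of the same number form a pair. The study's methods call the replicates independent biological replicates.

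Glycolysis splits glucose into pyruvate, and lactate dehydrogenase turns pyruvate into lactate, a route that many glioblastoma cells use even where oxygen is present. When oxygen is low, the prolyl hydroxylases that mark the HIF alpha subunits for destruction slow down, and the HIF factors then bind short DNA elements near their target genes. Glucose transporters, most glycolytic enzymes, carbonic anhydrase IX and VEGFA are well known targets, so that the pathway and the oxygen response share many genes.

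The sequences below show siLINC00152 #1, an exon 1 siRNA of the study (the labels of the arrays do not number the siRNA), and, for 3 members that the values turn on, the 300 bases around the gene start (250 before and 50 after it, RefSeq, GRCh38.p14). Capitals mark ACGTG or GCGTG, the core letters of the hypoxia response element, on either strand. PGK1 is shown because it changed most after the knockdown, and LDHA and CA9 because they differed between the lines. The PGK1 window is chrX:78103998-78104297 on the plus strand and holds 4 matches. The first LDHA window of 2 in the table is chr11:18394313-18394612 on the plus strand, with 6 matches. Each CACGTG in it counts as 2 matches, 1 on each strand, so that it has fewer marked stretches than matches. The CA9 window is chr9:35673678-35673977 on the plus strand, with 1 match.
siLINC00152 #1: tgcctgtcttcagatcttcacagca
PGK1: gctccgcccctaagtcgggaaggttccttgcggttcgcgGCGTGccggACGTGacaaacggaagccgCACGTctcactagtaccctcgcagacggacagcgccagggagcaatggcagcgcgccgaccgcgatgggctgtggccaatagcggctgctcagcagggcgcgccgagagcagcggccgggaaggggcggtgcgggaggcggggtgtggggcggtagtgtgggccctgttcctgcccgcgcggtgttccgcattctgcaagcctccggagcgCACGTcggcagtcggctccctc
LDHA: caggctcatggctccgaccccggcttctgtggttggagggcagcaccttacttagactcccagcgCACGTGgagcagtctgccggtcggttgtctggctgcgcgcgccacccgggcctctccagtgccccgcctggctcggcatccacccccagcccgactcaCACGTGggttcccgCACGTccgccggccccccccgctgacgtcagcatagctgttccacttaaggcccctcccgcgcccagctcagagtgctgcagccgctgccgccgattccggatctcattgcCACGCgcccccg
CA9: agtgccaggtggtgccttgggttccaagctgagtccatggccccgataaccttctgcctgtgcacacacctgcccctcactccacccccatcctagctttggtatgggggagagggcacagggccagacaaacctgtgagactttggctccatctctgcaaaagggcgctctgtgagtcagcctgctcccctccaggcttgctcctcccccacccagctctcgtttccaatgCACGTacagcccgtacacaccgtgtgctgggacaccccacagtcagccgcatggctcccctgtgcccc
Of the 39 members, 34 had a window in the table. ACGTG or GCGTG was found in the first listed window of 25 of these 34, and in 48.4% of all 35116 windows. ACGTG was in 14 member windows (21.4% of all windows) and GCGTG in 16 (36.5% of all windows), with 5 holding both (9.51% of all windows). A match describes the letters and does not show a binding site.

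Levels are given as log2 of the background-removed signal minus the 75th percentile of the same array, so that 0 is the brightness of the spot at that percentile, and levels of different probes are not compared. That percentile lay between 131 and 284 intensity units in A172 and between 33.0 and 69.0 in U87, and 57.3% to 69.0% of the spots were well above background in A172 against 35.7% to 48.3% in U87. U87 set 3 had the dimmest arrays, with percentiles of 33.0 (control) and 42.6 (siLINC00152) and 35.7% and 40.4% of spots well above background. In A172 each set was hybridised on a slide of its own, so that set and slide cannot be told apart there. All 8 U87 arrays shared a slide that held no A172 array, so that line and slide cannot be told apart either. LINC00152 itself read 2.63, 2.44 and 2.48 in the A172 control arrays and 0.23, -0.42 and -0.10 after the knockdown. In U87 it read 1.94, 1.83, 1.71 and 1.82 in control and -1.21, -0.88, -0.74 and -0.79 in siLINC00152 arrays. All 7 knockdown arrays lay below every control array of their line, with 16.3% of the control signal left in A172 and 15.1% in U87 (limma adjusted p = 0.000731 and 4.96e-05).

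Tests in a line took the probes that 3 or more arrays of one of its groups showed well above background. This held for 40 member probes of 32 genes in A172 and 43 member probes of 34 genes in U87, and 38 probes of 30 genes were tested in both. EGLN3, a prolyl hydroxylase, and SLC16A1, a lactate transporter, were not well above background on any array. CA9, CA12, PDK1 and ANGPTL4 were tested in U87 alone and KDM3A and ANKRD37 in A172 alone. A probe was called when its Benjamini-Hochberg adjusted p (FDR) was under 0.2 and its absolute log2 fold change over 0.5.

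After the knockdown, PGK1 was lower in every pair of both lines, and SLC2A3 was higher in every pair. NDRG1 was higher in every A172 pair. These 3 genes passed the limma test when arrays of the same set were compared with each other, that is with the set as a block. In the fit of the 4 group means, which compares groups without regard to sets, 0 of 40 member probes were called in A172 (0.183% of all 28338 probes tested) and 0 of 43 in U87 (0.0502% of 21921), with 4 and 2 member probes at an unadjusted p under 0.05 (2.28% and 2.31% of all probes). With the set as a block, 4 of 40 were called in A172 (3.26% of all probes tested) and 2 of 43 in U87 (4.19%). In A172, 3 of these 4 were higher (1.09% of all probes) and 1 was lower (2.17%), and in U87, 1 was higher (2.12%) and 1 lower (2.07%). Both SLC2A3 probes were among the 4 in A172. By gene, 3 of 32 had a called probe in A172 (4.99% of all genes tested) and 2 of 34 in U87 (5.44%). The U87 shares are near the background. At an unadjusted p under 0.05 there were 13 of 40 with the block in A172 (10.7% of all probes) and 5 of 43 in U87 (16.9%).

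PGK1 encodes phosphoglycerate kinase, the first enzyme of glycolysis that makes ATP. Its probe, printed in 10 spots, read 5.01, 5.10 and 4.44 in the A172 control arrays and 3.34, 3.41 and 2.56 in the siLINC00152 arrays. The U87 control arrays read 6.35, 6.68, 5.35 and 7.13 and the siLINC00152 arrays 5.36, 5.68, 4.48 and 5.74. The A172 groups did not overlap, whereas in U87 the control array of set 3 lay below 3 of the 4 knockdown arrays, and above the knockdown array of its own set. In A172 the log2 level of PGK1 fell by 1.75 (SE 0.14, 29.8% of the signal left, lower in 3 of 3 pairs), with an adjusted p of 0.00312 with the block and 0.455 (SE 0.45) without it. In U87 it fell by 1.06 (SE 0.12, 48.0% left, lower in 4 of 4 pairs), with adjusted p = 0.0157 with the block and 1 without. The smaller fall in U87 was not shown to differ from that in A172: the difference was 0.69 (adjusted p = 0.362 with the block). PGK1 was called in both lines with the block whichever set was left out, and at an FDR of 0.05.

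SLC2A3 encodes the glucose transporter GLUT3 and has 2 probes. The brighter probe read -1.44, -2.92 and -2.07 in A172 control and -1.07, -0.48 and -0.49 in A172 siLINC00152 arrays. In U87 it read -1.00, -1.11, -1.70 and -0.79 in control and -0.23, -0.14, -0.81 and 0.13 in knockdown arrays. The A172 groups did not overlap, and in U87 the knockdown array of set 3 lay at the level of the control array of set 4. With the block, the log2 change of this probe was 1.47 in A172 (SE 0.32, adjusted p = 0.106, 3 of 3 pairs higher) and 0.89 in U87 (SE 0.28, adjusted p = 0.195, 4 of 4 pairs higher). Without the block the adjusted p was 0.474 in A172 and 1 in U87. The U87 call was lost when any U87 set or A172 set 3 was left out, with the deposited values (adjusted p = 0.226), and with normexp and quantile normalization (0.45, under the fold threshold), and the A172 call when A172 set 2 or set 3 was left out. The size of the A172 change depended on the processing: it was 0.54 with normexp and quantile normalization, still called (adjusted p = 0.0203), and 0.98 without set 2. The U87 control array of set 3 was not well above background for either SLC2A3 probe.

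The other SLC2A3 probe read -2.02, -2.53 and -2.06 in A172 control and -1.09, -0.51 and -0.40 in knockdown arrays, again without overlap. Its U87 values were -1.06, -1.04, -2.99 and -0.63 in control and -0.88, -0.86, -0.96 and -0.49 after the knockdown, and the low control array of set 3 accounted for most of the mean difference. The change in A172 was 1.54 with the block (SE 0.38, adjusted p = 0.153), a call lost when any A172 set or U87 set 1 or 2 was left out, with the deposited values (adjusted p = 0.325) and with quantile normalization (adjusted p = 0.27). With normexp and quantile normalization it was 0.52 and called (adjusted p = 0.024). In U87 the difference was 0.63 (adjusted p = 0.373), and 0.16 without set 3, so that the probes of this gene disagreed in the U87 call.

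NDRG1, a gene induced by hypoxia and metal chelation, read 0.98, 0.38 and -0.17 in A172 control and 1.85, 1.35 and 0.81 in A172 siLINC00152 arrays. The groups overlapped, because the sets lay apart from each other, but each knockdown array was above the control of its own set. The difference was 0.94 (SE 0.20, adjusted p = 0.0991 with the block, 1 without), and the call was lost without any 1 of the A172 sets (adjusted p from 0.349 to 0.447). In U87 NDRG1 read 3.54, 3.73, 3.22 and 3.91 in control and 3.24, 3.32, 3.87 and 4.13 in knockdown arrays, higher in 2 of 4 pairs. The difference between the lines of -0.90 did not pass the test (adjusted p = 0.428 with the block).

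**Figure D1:**
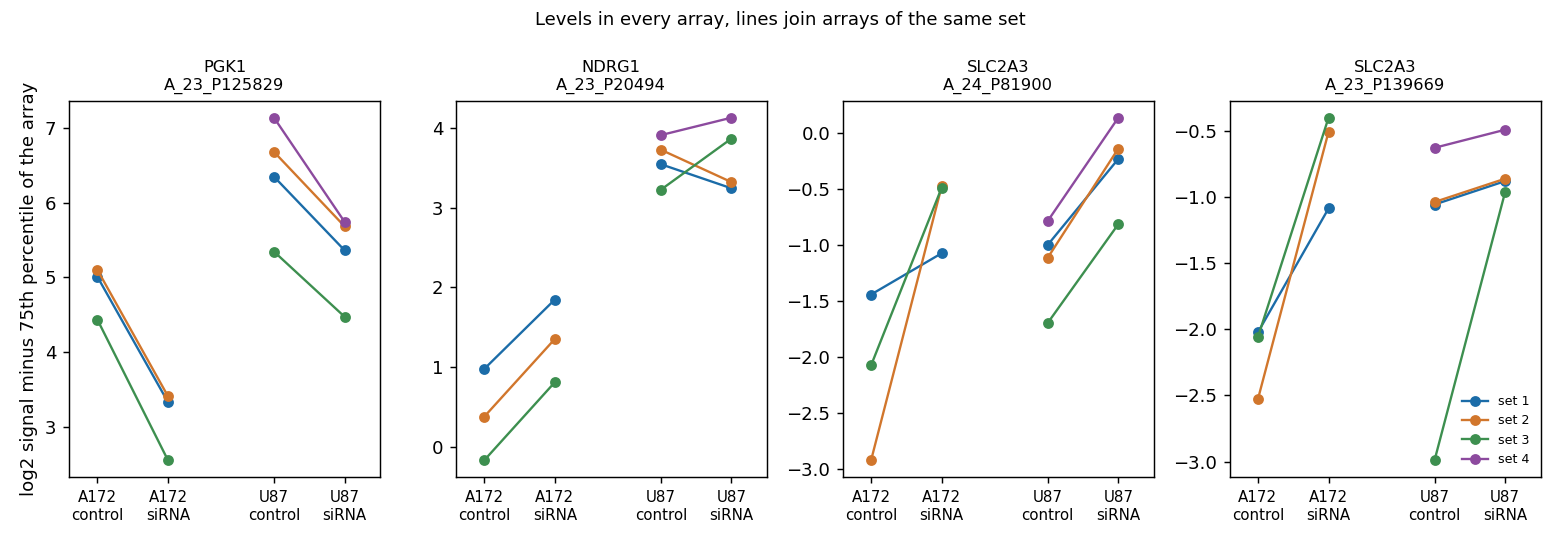
Level of each member probe called with the set as a block, in all 14 arrays (vertical axes, log2 signal minus the 75th percentile of the array, a scale of its own in each panel), with lines joining control and siRNA arrays of the same set. Every PGK1 line runs down and every SLC2A3 line up, while NDRG1 runs up in the 3 A172 sets and in 2 of the 4 U87 sets.

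The knockdown effects of the lines did not differ for any of the 38 member probes tested in both, either without the block (0.00945% of all 21163 probes called) or with it (0.421% called). At an unadjusted p under 0.05 there were 0 of 38 member probes without the block (0.789% of all probes) and 6 with it (8.31%). With normexp background correction and quantile normalization together with the block, an alternative chosen after the data were seen, 3 of the 38 differed (P4HA2, PFKP and PGK1), against 1.52% of all probes.

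No other member was called after the knockdown. PGAM1 was nearest to a call in A172, with 0.46 (adjusted p = 0.139 with the block), past the FDR but under the fold threshold, and 0.18 for its other probe. VEGFA had the largest difference in A172 that was not called (-0.51). It came mostly from set 3, with 0.66 in control and -0.75 after the knockdown. PFKP, the platelet isoform of phosphofructokinase, was lower in 3 of 3 A172 pairs by both probes (-0.47 and -0.40, adjusted p = 0.224 and 0.235 with the block), without a call. In U87, ANGPTL4, a secreted regulator of lipoprotein lipase, had the largest difference that was not called (0.68, SE 0.36, adjusted p = 0.379, higher in 4 of 4 pairs). The other members tested in U87 alone differed by -0.07 (CA9), 0.06 (CA12) and 0.14 (PDK1, which holds pyruvate back from the mitochondria), and KDM3A, a histone demethylase, by -0.02 in A172. SLC16A3, which exports lactate, differed by 0.48 in U87 (adjusted p = 0.238) and -0.23 in A172 (adjusted p = 0.895). Its A172 pairs went both ways, with 0.51, 1.29 and 0.73 in control and 0.89, 0.61 and 0.34 in knockdown arrays. The size of the A172 difference therefore depended on single sets. By the brightest probe of each gene, the median log2 fold change over the member genes was 0.04 in A172 (32 genes, 18 above 0) and 0.17 in U87 (34 genes, 28 above 0), against 0.03 and 0.02 over all tested genes, of which 55.9% and 52.5% were above 0. The U87 median came from set 3 more than from the others: within the pairs it was 0.01, 0.05, 0.49 and 0.10 in sets 1 to 4, against 0.02, 0.02, 0.04 and 0.02 over all genes.

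**Figure D2:**
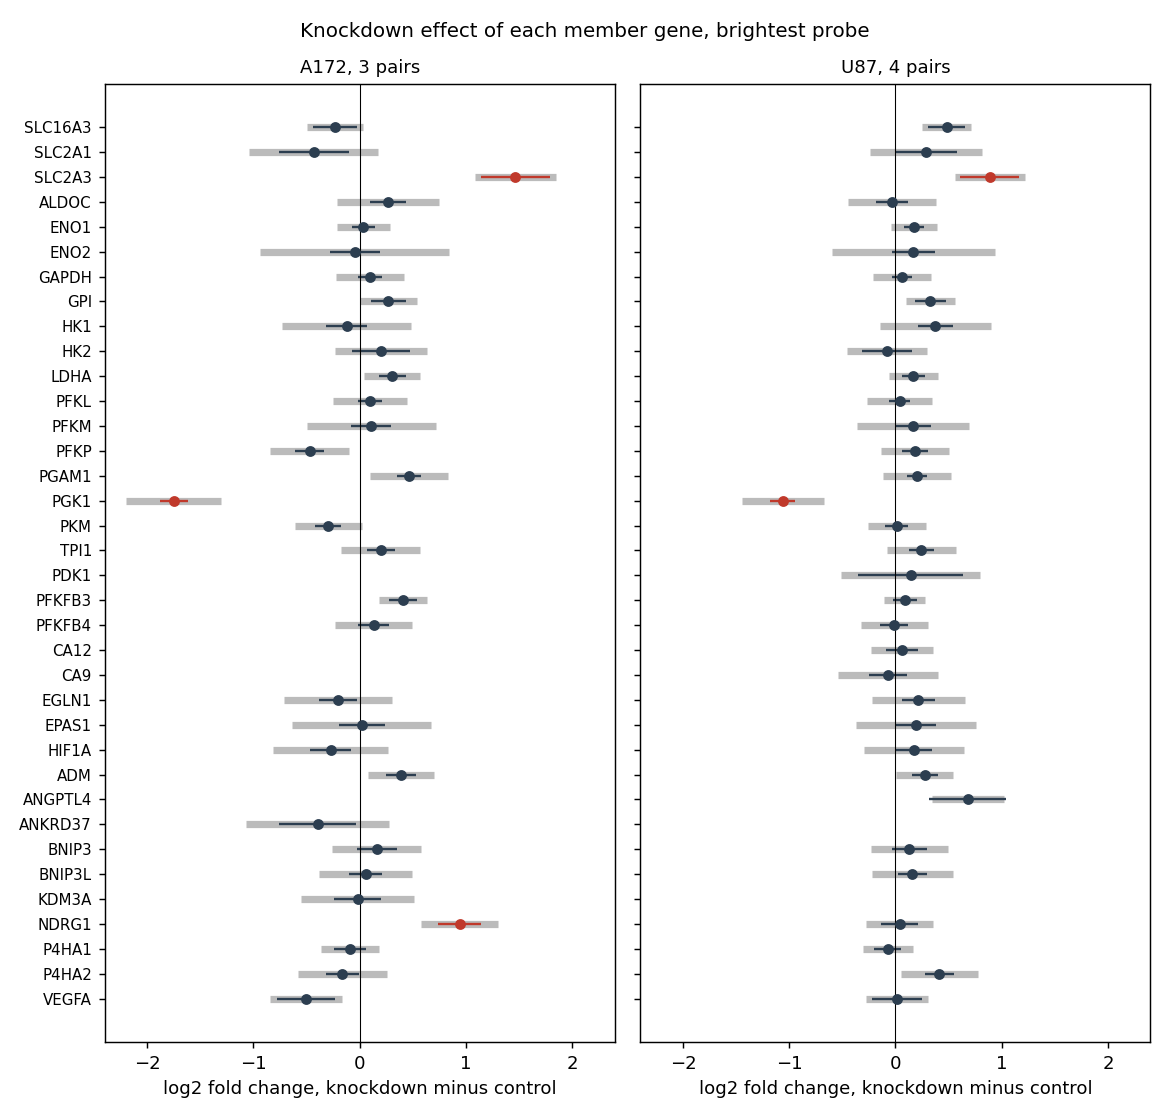
Log2 fold change, knockdown minus control, of each tested member gene by its brightest probe in A172 (left) and U87 (right). Points with thin bars are the fit with the set as a block and its standard error, thick grey bars the standard error without the block, and red points passed the test with the block. PGK1 stands apart on the low side in both lines, at -1.75 and -1.06.

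Of the 71 other genes of these pathways, 69 had a probe. In the fit of the 4 group means, 0 were called after the knockdown in either line (0.265% of all 14691 genes tested in A172 and 0.0659% of 12137 in U87 had a called probe). With the block, 2 of 56 tested genes were called in A172 (4.99% of all genes), both lower, where 3.27% of all genes were lower and 1.72% higher. In U87, 4 of 52 were called (5.44% of all genes), 2 higher (3.07%) and 2 lower (2.37%). These counts are near the background. LOXL2, a lysyl oxidase that crosslinks collagen, was called in both lines. It read 0.22, -0.22 and -0.09 in A172 control and -1.40, -2.49 and -1.71 in A172 knockdown arrays, and -1.34, -1.31, -0.10 and -0.97 and -2.01, -2.51, -0.95 and -1.95 in U87. It fell by 1.84 in A172 (adjusted p = 0.00648 with the block) and by 0.92 in U87 (adjusted p = 0.0505), lower in every pair. BHLHE40, a transcriptional repressor, fell by 0.82 in A172 (adjusted p = 0.0298), with -0.48 in U87 (adjusted p = 0.105), under the fold threshold. In U87, LDHB (0.65) and RORA (0.98) were called as higher and MXI1 (-0.52) as lower, LDHB by 1 of its 2 probes, the other differing by 0.02. Of 11 alternatives, 9 lost the LDHB call and 6 that of MXI1. With normexp and quantile normalization RORA (0.35) and, in U87, LOXL2 (-0.36) were not called, and in A172 BHLHE40 was not called without set 2 or set 3. By list, the calls with the block were 0 of 25 tested branch genes of glycolysis, 0 of 9 genes of the HIF system and 2 of 22 hypoxia-induced genes in A172, and 1 of 21, 0 of 8 and 3 of 23 in U87.

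The control cells of the lines differed far more than control and knockdown cells. Of the 38 member probes tested in both lines, 28 were called in U87 control minus A172 control, against 52.8% of all 21165 probes tested. Of these, 26 were higher in U87 (32.1% of all probes) and 2 were lower (20.6%). The median log2 difference over the member probes was 1.02, and over all probes tested 0.16. With normexp and quantile normalization the medians were 0.59 and 0.06, and 24 member probes were called, 21 of them higher, against 19.9% of all probes higher. The values are levels relative to each array's own 75th percentile, and the lines were on different slides.

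Among the glycolytic enzymes, 11 of the 15 genes tested in both lines had a probe called, all higher in U87, where 57.3% of all 11805 genes had a called probe, 36.1% a higher and 22.8% a lower one. No test of the list was made. Among those not detailed below, the differences were 1.52 for PGK1, 1.79 for ENO2, 1.26 for ALDOC, 1.01 for pyruvate kinase (PKM), 0.76 and 1.59 for the PFKP probes, and 1.60 for the brighter PGAM1 probe, whose other probe was not called (0.20). Without the A172 control array of set 1, ALDOC differed by 0.70 and was not called (adjusted p = 0.22), and with normexp and quantile normalization by 0.51. ENO2 differed by 2.69 without the U87 control array of set 3, which was not well above background, and its call was lost under 9 of 27 alternatives, that of the first PFKP probe under 7. GPI (0.39), HK1 (0.82) and the phosphofructokinases PFKL (-0.53) and PFKM (-0.55) were not called. These 4 depended on the U87 control array of set 3: without it PFKM differed by 0.03 (not called), and GPI (0.60), HK1 (1.44) and PFKL (-0.76) were called, as was the dimmer PGAM1 probe (0.66). GAPDH, which makes NADH in the middle of the pathway, read 5.95, 6.42 and 6.12 in A172 control and 6.09, 6.46 and 6.23 in A172 knockdown arrays. Its U87 values were 8.70, 8.75, 9.70 and 8.72 in control and 8.84, 8.89, 9.60 and 8.79 in knockdown arrays, every one above all A172 arrays and highest in set 3. Control cells differed by 2.80 (SE 0.30, adjusted p = 1.46e-05). TPI1, triosephosphate isomerase, read 2.83, 2.97 and 2.61 in A172 control, 2.87, 3.27 and 2.87 in A172 knockdown, 5.77, 5.95, 4.56 and 5.90 in U87 control and 5.93, 6.03, 5.09 and 6.10 in U87 knockdown arrays. Here set 3 was the lowest of U87 but still above A172, and the line difference was 2.74 (adjusted p = 6.68e-05) and 2.49 for the other probe.

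ENO1, the main enolase, gave 5.12, 5.43 and 5.08 in A172 control and 5.23, 5.36 and 5.13 in A172 knockdown arrays, and 7.82, 7.87, 8.17 and 7.62 in U87 control and from 7.79 to 8.45 in U87 knockdown arrays. The lines did not overlap, with a difference of 2.66 (SE 0.23, adjusted p = 3.05e-06). LDHA, the lactate dehydrogenase subunit that favours lactate, read 5.07, 4.99 and 4.74 in A172 control, 5.33, 5.48 and 4.92 in A172 knockdown, 6.89, 7.02, 6.72 and 7.41 in U87 control and 6.92, 7.15, 7.09 and 7.53 in U87 knockdown arrays by its brighter probe. All U87 arrays were above all A172 arrays, by 2.07 between the controls (adjusted p = 3.97e-05), and by 2.38 for the other probe. HK2, the hexokinase isoform of many tumour cells, was nearer: -2.82, -1.50 and -1.33 in A172 control, -2.13, -1.25 and -1.67 in A172 knockdown, -0.79, -1.16, -0.05 and -1.68 in U87 control and -1.05, -1.11, -0.78 and -1.07 in U87 knockdown arrays. The lines overlapped, and its difference of 0.96 (adjusted p = 0.0794) was not called without A172 set 1 (0.49) or with normexp and quantile normalization (0.33).

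**Figure D3:**
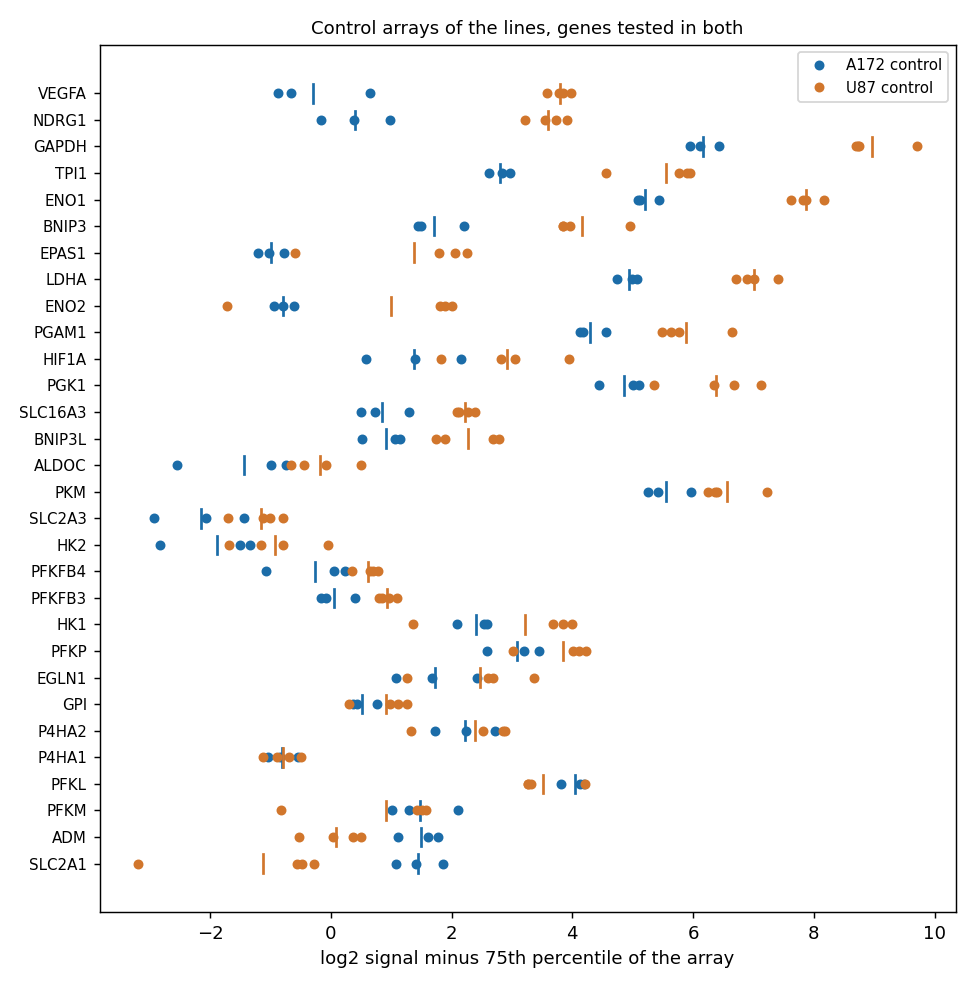
Level of each member gene tested in both lines in the control arrays (horizontal axis, log2 signal minus the 75th percentile of the array), with points for the 3 A172 and 4 U87 control arrays and bars for the group means, ordered by the difference. SLC2A1 lies at the bottom, with a difference of -2.57, and VEGFA at the top, with 4.09.

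Glucose uptake genes went both ways. SLC2A1, which encodes the transporter GLUT1, was the member furthest below A172 in U87: it read 1.85, 1.41 and 1.08 in A172 control, 1.28, 1.13 and 0.64 in A172 knockdown, -0.56, -0.28, -3.18 and -0.47 in U87 control and -0.79, -0.49, -1.59 and -0.47 in U87 knockdown arrays. Every A172 array was above every U87 array, and the U87 arrays of set 3 were the lowest. The difference was -2.57 (SE 0.57, adjusted p = 0.00335), and -1.89 without the U87 control array of set 3. The set 3 arrays of U87 were not well above background for this probe, so that their values are not levels, and with normexp and quantile normalization the difference was -1.41 (adjusted p = 0.000463). SLC2A3 was 1.00 higher in U87 control by its brighter probe (adjusted p = 0.0421) and 0.77 by the other (adjusted p = 0.189), and SLC16A3 was 1.37 higher (adjusted p = 0.000876). The SLC2A3 calls were lost under 3 and 20 of 27 alternatives, with 0.25 and 0.34 with normexp and quantile normalization. Both switches of glycolysis tested in both lines, PFKFB3 and PFKFB4, which set the level of the activator of phosphofructokinase, were called as higher in U87 (0.87 and 0.88). PFKFB4 was not called without the A172 control array of set 1 (0.48) or with normexp and quantile normalization (0.46).

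The carbonic anhydrases, which buffer acid at the cell surface, separated the control cells of the lines by detection. CA9 read 4.04, 4.09, 5.42 and 5.07 in U87 control and 3.91, 3.72, 5.51 and 5.20 in U87 knockdown arrays, well above background on all 8. In A172 its signals were -4.49, -3.01 and -3.54 in control arrays, none of them well above background, and -3.48, -2.76 and -3.54 in knockdown arrays, 2 of 3 well above it. CA9 was therefore at least 306-fold brighter in U87 control than in A172 control, taking for each dim array the higher of its own signal and the lowest signal well above background. CA12 was not well above background on any A172 array and was, on the same scale, at least 24.9-fold brighter in U87 control. Neither was tested between the lines.

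Of the HIF system, EPAS1, which encodes HIF-2 alpha, read -0.77, -1.20 and -1.02 in A172 control and -1.04, -0.68 and -1.21 in A172 knockdown arrays. In U87 it read 1.80, 2.06, -0.59 and 2.25 in control and 1.75, 1.99, 0.19 and 2.36 in knockdown arrays. The set 3 arrays were lowest in U87, the control near the A172 level, and the line difference was 2.37 (SE 0.61, adjusted p = 0.00838), 3.03 without set 3, and 1.49 with normexp and quantile normalization (adjusted p = 0.0138). HIF1A, which encodes HIF-1 alpha, a subunit controlled mainly by its protein's stability, differed by 1.53 by its brighter probe (adjusted p = 0.0301) and was not called by the other (1.04, adjusted p = 0.464). The latter depended on the U87 control array of set 3, which was not well above background: without it the difference was 1.90 and called (adjusted p = 0.128). EGLN1, the main HIF prolyl hydroxylase, was not called (0.75, adjusted p = 0.234), but was without that array (1.16, adjusted p = 0.0397) or without the A172 control array of set 1 (adjusted p = 0.13).

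Of the other hypoxia-induced genes, 5 of 7 tested in both lines had a probe called, 4 higher and 1 lower in U87, near the 57.3% of all genes. VEGFA, the vascular growth factor, read -0.87, -0.66 and 0.66 in A172 control, -1.05, -0.58 and -0.75 in A172 knockdown, 3.98, 3.84, 3.58 and 3.78 in U87 control and 3.75, 3.72, 3.99 and 3.80 in U87 knockdown arrays. The U87 arrays lay close together and far above A172, by 4.09 between the controls (SE 0.32, adjusted p = 1.11e-06). Its dimmer probe was not well above background on any A172 array and at least 5.86-fold brighter in U87 control, where 3 of 4 arrays measured it. NDRG1 (3.20), the mitophagy receptors BNIP3 (2.44) and BNIP3L (1.37, with -0.11 and no call for its other probe, which gave 0.50 without the U87 control array of set 3, again not called) were higher in U87, and ADM, adrenomedullin, was lower (-1.40, adjusted p = 0.00215). The prolyl 4-hydroxylase genes of collagen, P4HA1 (0.01) and P4HA2 (0.17), were not called. The P4HA2 difference depended on the U87 control array of set 3, which read 1.33 against 2.52, 2.85 and 2.88, and was larger without it. Of the other pathway genes, 27 of 49 tested in both lines were called, 16 higher and 11 lower in U87, again near the share of all genes.

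The replicate sets of a line differed more than its control and knockdown arrays. In the test of the set coefficients, with a range of the set means over 0.5, 20 of 40 member probes were called in A172 (59.4% of all probes tested) and 36 of 43 in U87 (77.2%). Without A172 set 1 the count in A172 was 4 (23.4% of all probes), and without U87 set 3 the count in U87 was 15 (42.9%). With all sets, the members' shares were below the background in A172 and close to it in U87. Without A172 set 2, however, 16 of 40 were called in A172 (29.1% of all probes), above the background. The comparison also depended on the processing. With normexp and quantile normalization, 17 of 40 were called in A172 (26.9% of all probes) and 31 of 43 in U87 (51.0%), above the background in both. Proliferation genes differed between the sets too, 10 of 15 called in A172 (62.8% of all genes) and 13 of 15 in U87 (79.6%), near the background, with none called after the knockdown, and their part in the set differences was not tested.

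In A172, where each set was also a slide, the members with the largest ranges had set 1 at one end. Its mean was more than 1 log2 unit below that of the other sets for 3 of 40 member probes and above it for 3, against 8.73% and 3.94% of all probes tested. Set 3 was below the mean of the other sets for 30 of the 40, mostly by less, and without it the ranges of PGK1 (0.09) and HK1 (0.06) were no longer called. The share of all probes below that mean was not counted, so that this is not shown to be particular to the members. ANKRD37, an ankyrin repeat gene induced by hypoxia, read -0.21, -2.91 and -3.06 in control and -1.33, -3.21 and -2.83 in knockdown arrays of sets 1 to 3, so that both arrays of set 1 were the highest (range of the set means 2.29, adjusted p = 0.00912). The knockdown array of set 2 was not well above background for this probe, so that its range describes signals and not levels. HIF1A read 2.16, 0.58 and 1.40 in control and 1.72, 0.27 and 1.32 in knockdown arrays by its brighter probe, and -0.79, -2.36 and -2.25 and -1.00, -2.84 and -2.91 by the other. Set 1 was highest by both probes, with ranges of 1.51 and 1.70 (adjusted p = 0.00688 and 0.00173). EGLN1 had the order of sets of the brighter HIF1A probe, with 2.42, 1.08 and 1.68 in control and 2.03, 1.12 and 1.42 in knockdown arrays (range 1.13, adjusted p = 0.0143). In U87, where set 3 was its lowest, it read 2.61, 2.69, 1.26 and 3.37 and 2.60, 2.74, 2.02 and 3.42. ANKRD37 signals in U87, where it was not tested, were -4.07, -4.32, -3.26 and -4.42 in control and -4.14, -4.00, -3.65 and -2.99 in knockdown arrays.

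Set 1 was lowest for other members, among them the enzymes ALDOC and HK2. ALDOC, aldolase C, read -2.55, -0.75 and -0.99 in A172 control and -1.79, -0.60 and -1.10 in knockdown arrays (range 1.49, adjusted p = 0.0043), and the HK2 values given above had set 1 lowest in both groups (adjusted p = 0.0544). ALDOC read -0.66, -0.44, 0.50 and -0.07 in U87 control and -0.71, -0.44, 0.33 and 0.01 in U87 knockdown arrays, highest in set 3. Between sets 2 and 3 of A172 these 5 genes, HIF1A by its dimmer probe, were not called: without set 1 the ranges were 0.11 for ANKRD37, 0.02 for the dimmer HIF1A probe, 0.45 for EGLN1, 0.37 for ALDOC and 0.13 for HK2. By its brighter probe HIF1A still differed between sets 2 and 3 (0.93, adjusted p = 0.0719). With normexp and quantile normalization the HK2 range was 0.26 and not called, and the others were smaller too: 0.64 for ANKRD37, 0.52 for the dimmer HIF1A probe, 1.29 for the brighter one, 0.87 for EGLN1 and 0.62 for ALDOC, all called.

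In U87, set 3 stood apart, the set with the dimmest arrays. Its mean was more than 1 log2 unit below the mean of the other sets for 17 of 43 member probes and more than 1 above it for 3, against 13.8% and 12.0% of all probes tested. ENO2, the neuronal enolase, read 1.81, 2.01, -1.71 and 1.90 in U87 control and 1.69, 1.95, -0.84 and 1.89 in knockdown arrays of sets 1 to 4. HK1, the widely expressed hexokinase, read 3.68, 4.00, 1.37 and 3.85 and 3.88, 4.10, 2.41 and 4.01. In both genes and both groups set 3 was far below the other sets, which lay together (ranges 3.26 and 2.16, adjusted p = 0.000422 and 0.001). Without set 3 the ranges were 0.23 and 0.27 and not called, and with normexp and quantile normalization they were 1.95 and 1.90 and called. The ENO2 signal of the set 3 control array was not well above background. In A172, ENO2 read -0.61, -0.79 and -0.95 in control and -0.16, -1.15 and -1.18 in knockdown arrays, and HK1 2.58, 2.54 and 2.09 and 2.56, 2.48 and 1.81. The EPAS1 values above had the same low set (range 2.51, adjusted p = 0.001, 0.53 and still called without set 3, 1.76 with normexp and quantile normalization).

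Probes of some genes disagreed in U87 set 3, in size or in direction. The dimmer HIF1A probe, printed in 10 spots, read -0.48, -0.19, -3.33 and 0.97 in U87 control and -0.56, -0.28, -3.78 and 0.82 in knockdown arrays, and the brighter one 3.05, 2.81, 1.83 and 3.95 and 2.98, 2.87, 2.65 and 3.84. Both were lowest in set 3, but the range of the set means was 4.45 for the former and 1.65 for the latter. The dimmer probe was not well above background in either set 3 array, so that its range describes signals and not levels, and it was 1.42 without set 3 and 1.99 with normexp and quantile normalization. For BNIP3L, 1 probe read 1.06, 1.13, -0.94 and 2.29 in control and 0.83, 1.09, 0.23 and 2.37 in knockdown arrays, lowest in set 3, and the other 1.89, 1.74, 2.69 and 2.78 and 1.80, 1.84, 3.14 and 2.97, where sets 3 and 4 were the highest. In A172 the former read 1.61, 0.58 and 0.79 in control and 1.07, 0.55 and 0.77 in knockdown arrays and the latter 1.15, 0.51 and 1.06 and 1.12, 0.35 and 1.43, within a narrower span. The PGAM1 probes had set means of 6.81 and 3.45 in set 3, the former the highest and the latter the lowest of the 4 sets. The 2 PFKP probes had ranges of 0.94, with set 3 lowest, and 0.16, not called. The probes of TPI1 and of LDHA did not part in this way: both TPI1 probes were lowest in set 3 (ranges 1.18 and 1.44, and 0.15 and 0.30 without it). The ranges of both LDHA probes (0.57 and 0.71) came from set 4, the highest, and were 0.18 and 0.19 and not called without it. Where each probe lies in its transcript was not analysed here.

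**Figure D4:**
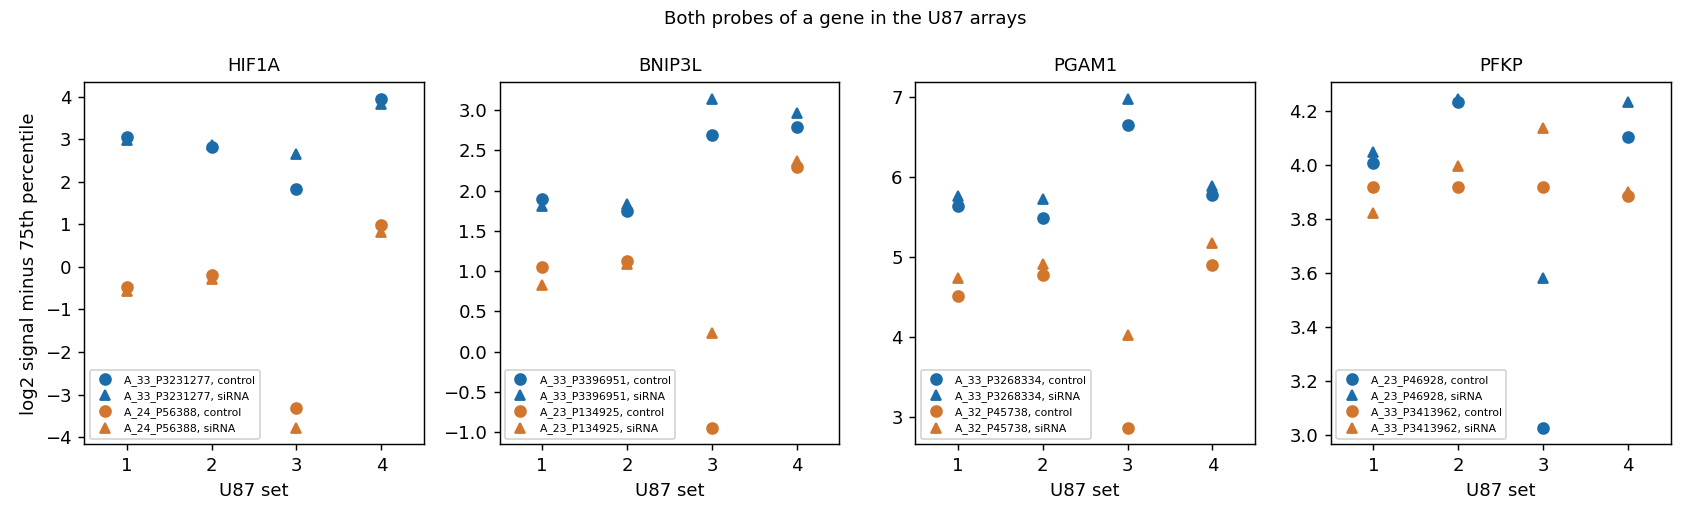
Both probes of HIF1A, BNIP3L, PGAM1 and PFKP in the 8 U87 arrays by set (vertical axes, log2 signal minus the 75th percentile of the array, a scale of its own in each panel), with circles for control and triangles for siRNA arrays. Each probe is read against its own other sets: in set 3 one PGAM1 probe is at its highest, 6.81 on average, and the other at its lowest, 3.45, while the dimmer HIF1A points there are not well above background.

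In U87 set 4, 8 member probes lay more than 1 log2 unit above the mean of the other 3 sets, low set 3 included, and 0 below, against 7.22% and 6.60% of all probes tested. HIF1A, BNIP3 and PGK1 were among the genes with the highest set mean there. GAPDH, PFKL and PKM were highest in set 3, and VEGFA, by its brighter probe, was level over the U87 sets, with a range of 0.09. The sets therefore differed in both directions over the members.

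**Figure D5:**
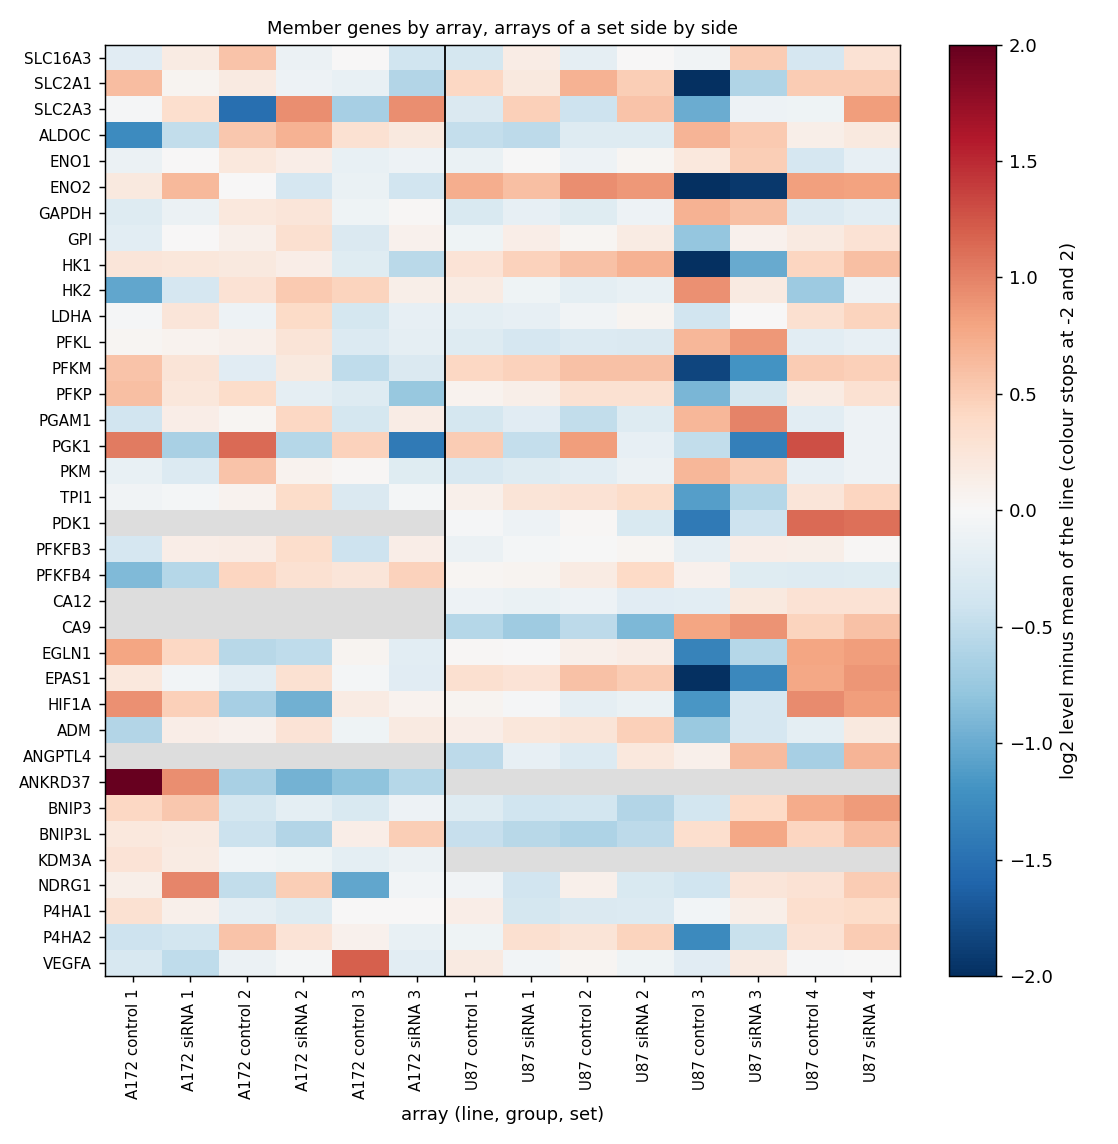
Deviation of each array from the mean of its line for the member genes tested (brightest probe, log2, colours stop at -2 and 2, grey where not tested in the line), with control and siRNA arrays of a set side by side. Neighbouring columns of a set mostly look alike, U87 set 3 holds many of the darkest cells, and PGK1 is lower in the siRNA array than in the control array of every set.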

How the data were processed

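Total RNA of the 14 samples was hybridised to one-colour Agilent arrays. The authors extracted the intensity of each spot with Feature Extraction 11.5.1.1 (design annotated to hg19) and deposited it, together with log2 values that they normalized between arrays by steps for which the paper refers to an earlier publication. The deposited log2 values had the same distribution on all arrays (median 4.38, centring and scale otherwise unknown).

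From log2 of the processed signal the array's 75th percentile was subtracted, and the spots of each probe were averaged, without those flagged as outliers. Accessions named 29033 of 50599 probes through RefSeq's table for GRCh38.p14. A probe was well above background on an array when at least 0.5 of its spots were. Limma 3.58.1 in R 4.3.3 (lmFit, eBayes, Benjamini-Hochberg over all probes of a comparison) was fitted with 4 group means, and as an alternative with the set within each line as a block, and was tested on simulated data. Probes whose effect could not be estimated were left out. Set differences were tested with limma's moderated F test.

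Set numbers come from the labels. With group means removed, control and knockdown arrays of a set correlated at 0.675 to 0.794 (A172) and 0.373 to 0.864 (U87). Arrays of different sets correlated at -0.701 to -0.0434 and -0.772 to 0.411, and removing the means of so few arrays itself lowers these values. In A172 a set was also a slide, so that this cannot show whether the numbers pair the cultures. In U87, on a shared slide, the arrays of sets 2, 3 and 4 correlated most with their own set, and those of set 1 did not. The control array of set 1 correlated at 0.373 with its own knockdown array and at 0.403 with that of set 2. Over the member probes these values were 0.856 and 0.797. Mean spot signal was not used, so normexp (offset 50) took the median signal.

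The members and lists were chosen with earlier results of these data known. Values of every array are given for members called after the knockdown in either fit, the 5 with the largest set range in each line, the 5 with the largest difference between the control groups, and HIF1A, EPAS1, CA9, VEGFA, SLC2A1, HK2, LDHA and GAPDH. For ENO1 in U87 siLINC00152 the lowest and highest stand for the 4 arrays. LOXL2 values were added after they were seen. The number of arrays limits the precision.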

Additional observations from a re-analysis of the deposited data

Results flagged for a closer look

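In the 4 arrays of a U87 group, a value was marked when its gap to the nearest other array, divided by the range of the group, was above Dixon's critical value of 0.829. Of 86 groups looked at (43 probes, 2 groups), 19 were marked, where chance marks about 1 in 20, and 17 of the 19 lay in set 3. Other probes were not looked at in this way, so that the count is not shown to be particular to the members. In U87 set 3, 13.8% of all probes tested lay more than 1 log2 unit below the mean of the other sets and 12.0% above it. In U87 control, set 3 was far below the other arrays for EPAS1 (-0.59), ENO2 (-1.71), HK1 (1.37), PFKM (-0.83), TPI1 (4.56), the dimmer VEGFA probe (-2.60) and SLC2A1 (-3.18), and far above them for GAPDH (9.70), PFKL (4.21) and PKM (7.22). In U87 siLINC00152, set 3 was far below for ENO2 (-0.84), HK1 (2.41), PFKM (-0.19) and TPI1 (5.09) and far above for GAPDH (9.60), PFKL (4.40) and the brighter PGAM1 probe (6.97). In set 4 of U87 control, the dimmer PFKP probe was low (3.89), although the group spanned little, and BNIP3 was high (4.96). Set 3 also had the lowest 75th percentiles and the fewest spots well above background, and the part of either in these values was not tested.

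For 2 probes every A172 pair moved one way and every U87 pair the other. The share of all probes that did so was not counted, so that this is not shown to be particular to the members. In U87 the pair of set 3, the set with the dimmest arrays, differed most for both. There HK1 read 1.37 in control and 2.41 after the knockdown, and the brighter PFKP probe 3.03 and 3.58. The effect in U87 minus that in A172 was 0.50 for HK1 (adjusted p = 0.655 with the set as a block) and 0.66 for the brighter PFKP probe (adjusted p = 0.402), so that neither difference passed the test. The PFKP difference was called with normexp and quantile normalization together with the block, an alternative chosen after the data were seen.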

How the results depend on the processing

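The number of member probes called after the knockdown depended on the pairing. With the replicate block it went from 0 to 4 (A172) and from 0 to 2 (U87), and likewise to 4 and 2 with the set as a random block (consensus correlation 0.748), and stayed at 0 for the difference between the lines. Over single sets and arrays left out, the unblocked count ranged from 0 to 3 in A172 (3 without U87 set 3 and 2 without its control array) and was 0 throughout in U87. The share of all probes was not counted for these or for the random block. The following alternatives, each with the replicate block, were chosen after the data were seen. At an FDR of 0.05, 1 probe was called in each line, PGK1, against 270 of all 28338 probes in A172 and 112 of 21921 in U87. In U87, 1 was called with normexp and quantile normalization (187 of all 21921 probes) and 1 with the deposited values (635 of all probes). The difference between the lines went from 0 to 3 with normexp and quantile normalization, and over all 21163 probes from 89 to 322. Leaving out sets gave blocked counts of 1 to 4 (A172) and 1 to 2 (U87). The cause was not tested.

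As sets were left out, 4 to 21 member probes were called between the A172 sets (23.4% to 63.2% of all probes). Between the U87 sets there were 15 to 36 (42.9% to 77.0% of all probes). As sets or arrays were left out, 24 to 35 were called between the lines, within 1.5 times of 28 under every alternative. The share of all probes was not counted for these line counts. The median over the member genes was 0.066 in set 3 of A172 by itself and 0.49 in set 3 of U87. The log2 difference of NDRG1 in U87, 0.04 and not called, ranged from -0.16 to 0.19 as sets and arrays were left out. PGK1 kept its direction under all alternatives. Of the named line differences that were not called, PFKM reached 0.03, the second BNIP3L probe 0.50, P4HA1 -0.10 and P4HA2 -0.08 as sets or arrays were left out, and the dimmer PGAM1 probe -0.04 with the deposited values, each on the other side of 0. The same held with the block after the knockdown for CA9 (0.03), CA12 (-0.05), PDK1 (-0.14), the second LDHB probe (-0.14) and KDM3A (0.02), likewise not called. No called member difference between the lines and no call with the block in a line changed direction.

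Normexp with quantile normalization made most of the member differences smaller. The median line difference over the member probes was 1.02 in the main values, 0.95 with quantile normalization alone and 0.59 with both. In the same order, the knockdown medians were 0.08, 0.05 and 0.04 in A172 and 0.17, 0.17 and 0.10 in U87. Normexp used an offset of 50, where the U87 75th percentiles were 33.0 to 69.0, and the fold threshold stayed at 0.5. Between the lines normexp with quantile normalization took the calls of HK2, PFKFB4, the second PFKFB3 probe and both SLC2A3 probes. With the block it took the U87 calls of LOXL2 (-0.36), MXI1 (-0.20) and RORA (0.35), and left LOXL2 at -0.78 in A172. Of 11 alternatives, 9 lost the LDHB call, 6 that of MXI1 and 2 that of BHLHE40 in A172. The cause was not tested. The filter on dim probes and the flagged spots changed no count by over 1.5 times.

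Dim arrays limit what can be read in U87, where fewer spots were well above background than in A172. With 3 and 4 pairs, a difference that missed the threshold is not shown to be absent. Members with no level above background have bounds at most.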

Other observations

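Markers of the lines were partly absent. Of 7 genes listed for glioma cells, VIM, NES and CD44 were well above background on all 14 arrays, SOX2 on 6 of 6 A172 and 0 of 8 U87 arrays, OLIG2 on 6 and 3, GFAP on 1 and 0, and S100B on none. CD44, a hyaluronan receptor, fell by 1.13 in A172 with the set as a block (limma adjusted p = 0.00807, lower in 3 of 3 pairs) and differed by 0.12 in U87 (adjusted p = 0.559), and its other probe was not called in A172 (-0.24).

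Of the marker lists of other cell types, the fibroblast and endothelial lists separated the lines by detection. On each A172 array 3 or 4 of 5 fibroblast and 4 of 4 endothelial genes were well above background, and on each U87 array 1 and 2 or 3. The endothelial separation came from PECAM1 (6 A172 and 0 U87 arrays) and in part KDR (6 and 6), with CDH5 and VWF above background on all arrays. Of 3 endothelial genes tested between the control cells, 1 was called as higher and 1 as lower in U87 (median 0.03). Of the 7 glioma genes, 5 or 6 were on A172 and 3 or 4 on U87 arrays, which had fewer spots above background altogether. PDGFRB of the fibroblast list fell by 0.77 in A172 with the block (adjusted p = 0.0827, lower in 3 of 3 pairs), a call lost under 5 of 11 alternatives. COL1A2 was 0.95 higher after the knockdown in U87 with the block (adjusted p = 0.0365, higher in 4 of 4 pairs). Of the epithelial list, KRT14 rose in A172 by 2 of its probes, by 3.35 and 3.36 (adjusted p = 0.0142 and 0.0157 with the block, 0.02 and 0.01 without). Its brightest probe differed by 0.71 and was not called, and with normexp and quantile normalization the former values were 2.00 and 1.09. KRT8 fell by 0.53 in U87 with the block by 1 of its 2 probes tested there (adjusted p = 0.102, lower in 4 of 4 pairs), a call lost under 5 of 11 alternatives. The other lists had 3 to 6 of 7 (epithelial), 3 or 4 of 4 (leukocyte) and 1 to 3 of 3 genes (neuron) well above background on an array, each gene by its brightest probe.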
